A study of Mus musculus with 49 samples.

Results

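A set of 7 genes that mark bile duct cells and liver progenitor cells was read in mouse liver and in liver tumors driven by the human MET oncogene: Epcam, Sox9, Krt19, Krt7, Spp1, Cd24a and Prom1. They were found by symbol in the annotation of the custom Affymetrix array, and all 7 of 7 were measured, among 21517 named genes. Epcam was annotated under its older symbol, Tacstd1. Sox9, Cd24a and Prom1 had 2 probe sets each, and the brighter one on average over the 49 samples was taken, whereas the other genes had 1.

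Bile ducts are lined by cholangiocytes, which share an embryonic precursor, the hepatoblast, with hepatocytes. Mature hepatocytes hold little of the keratins, adhesion molecules and transcription factors of the duct, while duct-like progenitor cells and some liver cancers carry them. Several of these markers also occur outside the duct, Spp1 in macrophages and activated stellate cells and Cd24a on immature blood cells.

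All mice were of the FVB strain. Young liver came from 7 mice labelled LAP-tTA at 7 weeks of age and from 7 labelled with the Tre-c-Met transgene (TRE-MET) at 6 weeks. At 14 weeks there were 7 control livers labelled FVB-WT and, from 7 mice labelled LAP-tTA-Tre-c-Met, 7 pieces of non-tumor liver read as distant from tumors (label dis-Liv), 7 read as adjacent (ad-Liv) and 14 tumors, named 1a to 7b by mouse. In this system the liver-specific LAP promoter drives a tetracycline transactivator that turns on the human MET gene. By the study's methods TRE-MET mice carried both transgenes and the control strain 2 copies of LAP-tTA, whereas the labels name only Tre-c-Met for the young TRE-MET mice and wild type for the 14-week controls, so genotype, age and tissue cannot be fully told apart between groups. For TRE-MET 1 the title says 6 weeks and the age label 14, and the title was followed.

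Values are log2 of the deposited intensities, whose mean is 1.0 in every sample. Sample medians were −3.42 to −3.20. No background level is given, so values of Epcam and Krt7, which lie near or below those medians in most livers, and of Prom1 in young liver and in 14-week livers without Xist (a transcript described next) may sit at the floor of the array, and folds are ratios of intensity. So may Sox9 in LAP-tTA liver, at a mean of −3.33, and in some distant livers and tumors. Of 9 hepatocyte markers, Alb, Apoa1 and Cyp2e1 lay above at least 99.8% of probe sets in every sample, tumors included. The lowest share in any sample was 96.8% for Asgr1, 95.7% for Hnf4a, 93.2% for Ttr, 86.4% for Apob, 82.6% for Tat and 58.1% for Cps1. Xist, the RNA that silences an X chromosome in female cells, was at 1.14 to 1.96 in 18 samples and at −5.37 to −4.57 in the other 31, and the Y-linked gene Eif2s3y was low in the 18 and high in the 31. The samples with Xist came from MET mice 3, 4, 5 and 6 and from controls 1 and 2, and all young mice were without it. TRE-MET 1, 2, 3 and 5 stood apart in neutrophil genes, with summed intensities of at least 4.5 against 0.635 to 0.769 in TRE-MET 4, 6 and 7. Controls 5 and 7 carried the acinar pancreas gene Cpa1 at 2.97 and −0.71, against −2.11 at most in all other samples. Tumor 1b stood apart in many lists, as given below. For the 7 genes, most results that rest on these samples are also given without them. Results for the further gene lists include them throughout.

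Over the 6 groups, 5 of the 7 genes differed (limma F test, adjusted p = 0.00777 or lower), Epcam and Krt7 being the exceptions at adjusted p = 0.36 and 0.288. The background was high, since 60.4% of the 43681 probe sets differed in the same test. The plot of all values shows that Krt19, Cd24a and Prom1 were highest in tumors, whereas Sox9 was highest in TRE-MET liver and Spp1 ranged most widely in tumors. In this bulk tissue, fewer cells of a type and less RNA per cell cannot be told apart.

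**Figure D1:**
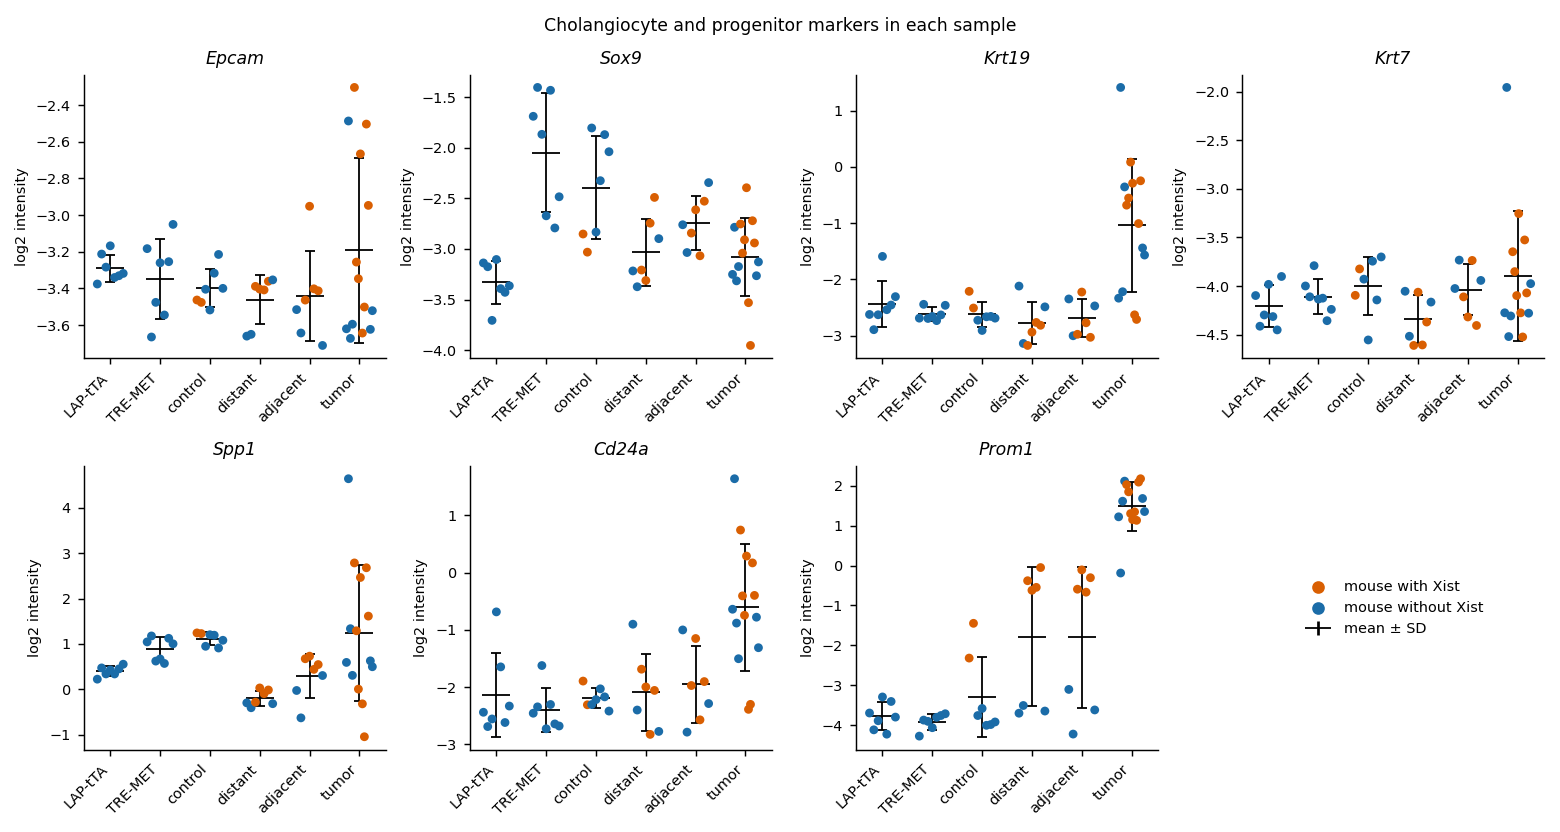
Log2 intensity of each of the 7 genes in the 49 samples, by group, with young liver at left. Points are samples, coloured by whether the mouse has Xist, and bars are the group mean ± SD. Prom1 of distant and adjacent liver falls into a high set, in mice with Xist, and a low set.

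In tumors the surface protein Prom1 and the duct keratin Krt19 rose together with Cd24a. Against control liver, 3 of 7 genes rose and 1 fell, where 13.4% of all probe sets rose and 15.8% fell. Against distant liver of the same mice 5 rose and 0 fell, where 13.5% rose and 13.1% fell. Against adjacent liver 3 rose and 1 fell, where 12.7% rose and 20.1% fell. The last split depended on scaling. Of called probe sets, 5545 were higher and 8779 lower as deposited, but 7051 higher and 3490 lower once sample medians were set equal. The tumor samples are shared between these 3 comparisons, so their counts are not independent.

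**Figure D2:**
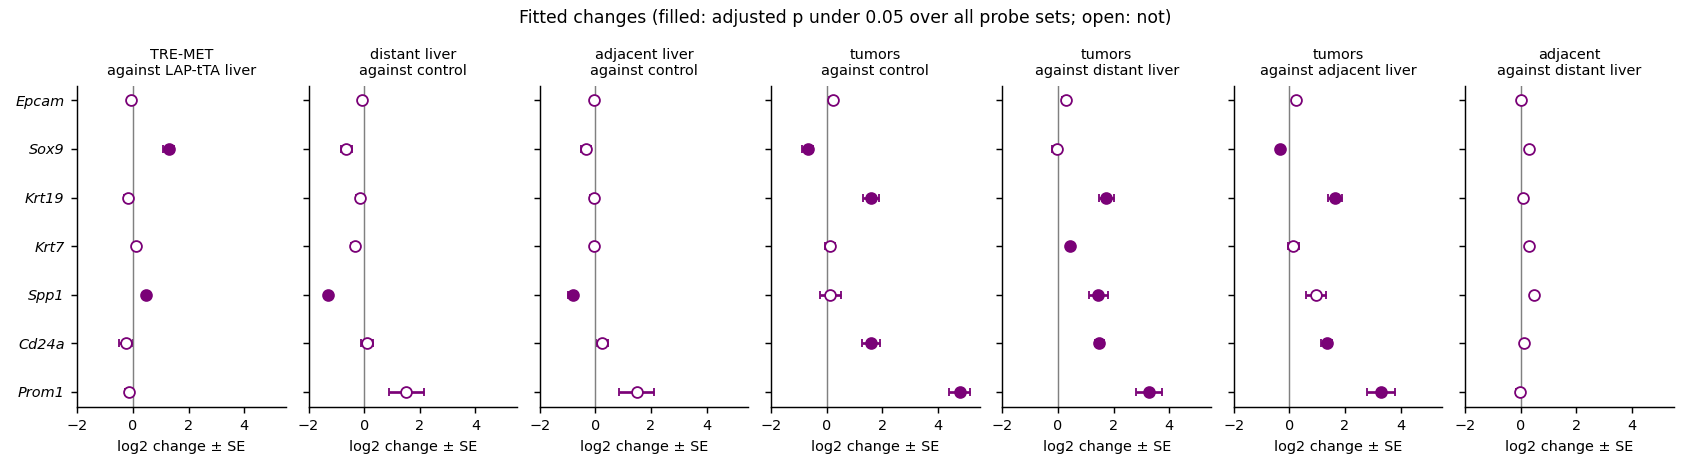
Fitted log2 change ± SE of each gene (rows) in 7 comparisons (panels), from limma, with 7 mice or pairs of samples a group. Filled points have an adjusted p under 0.05 over all probe sets. Prom1 lies farthest to the right in the 3 tumor comparisons, and Spp1 lies left of zero in distant and adjacent liver.

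Prom1 encodes prominin-1 (CD133), a membrane glycoprotein of cell protrusions that is used to mark progenitor cells. Its windows around 2 annotated transcription starts (250 bases before to 50 after, RefSeq on GRCm38.p6, minus strand) are shown because Prom1 changed most and its 2 probe sets disagreed. The first of 2 windows of Spp1 is shown beside them because it is the member that went down outside tumors and up within some of them. Windows were in the table for 4 of the 7 genes (Epcam, Krt7, Spp1 and Prom1). Capitals mark matches on either strand to the motifs of the Wnt effectors TCF/LEF (CTTTGAT), of the YAP partners TEAD (GGAATG), of the Notch effector RBPJ (TGGGAA), of the Fos and Jun dimer AP-1 (TGANTCA), of SOX factors (AACAATG) and to the letters TATAAA, called the TATA box.
Prom1, first window, chr5:44101687-44101986: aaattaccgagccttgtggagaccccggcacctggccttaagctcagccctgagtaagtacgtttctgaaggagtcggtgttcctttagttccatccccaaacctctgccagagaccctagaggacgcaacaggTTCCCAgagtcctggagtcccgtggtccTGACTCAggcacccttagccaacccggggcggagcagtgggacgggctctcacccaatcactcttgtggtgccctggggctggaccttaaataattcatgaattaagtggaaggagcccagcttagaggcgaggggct
Prom1, second window, chr5:44094719-44095018: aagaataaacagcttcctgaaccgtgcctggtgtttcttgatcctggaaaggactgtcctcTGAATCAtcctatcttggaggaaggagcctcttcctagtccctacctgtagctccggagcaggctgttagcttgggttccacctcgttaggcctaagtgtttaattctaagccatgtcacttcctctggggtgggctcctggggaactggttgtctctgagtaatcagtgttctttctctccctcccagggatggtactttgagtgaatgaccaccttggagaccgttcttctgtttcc
Spp1, first window, plus strand, chr5:104434861-104435160: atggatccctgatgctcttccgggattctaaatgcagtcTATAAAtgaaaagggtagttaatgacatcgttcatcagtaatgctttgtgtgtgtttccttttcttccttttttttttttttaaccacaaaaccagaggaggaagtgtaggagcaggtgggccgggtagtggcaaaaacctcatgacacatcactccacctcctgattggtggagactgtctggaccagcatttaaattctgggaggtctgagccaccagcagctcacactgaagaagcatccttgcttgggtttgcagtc
The first Prom1 window held an RBPJ match (TTCCCA) from −116 and an AP-1 match (TGACTCA) from −88 relative to the start, and the second an AP-1 match (TGAATCA) from −189. The first Spp1 window held a TATA match from −211, and the second, at chr5:104435942-104436241, held no match and is not shown. No matches overlapped. Among all 32851 windows of this length in the table, 25.6% held the RBPJ motif, 7.81% AP-1, 13.6% TATA, 14.7% TEAD, 3.73% TCF/LEF and 3.78% SOX. A match is a run of letters and was not tested as a site.

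At its brighter probe set Prom1 was low in young liver. In LAP-tTA liver it ran from −4.23 to −3.30 (median −3.80) and in TRE-MET liver from −4.28 to −3.72 (median −3.88). In tumors it ran from −0.19 in tumor 1b to 2.18 in tumor 6b, with a median of 1.49. Of the 14 tumors, 13 were above every one of the 35 liver samples, the exception being tumor 1b, which lay below the highest liver value, −0.05. Tumors were 27.5-fold above control liver (log2 change 4.78, SE 0.38, adjusted p = 8.4e-08), with no overlap between the samples. The 5 controls without Xist, at −4.01 to −3.58, were below the sample medians, so this fold depends on a level that may be at the floor. Against distant liver the change was 3.27 (SE 0.46, adjusted p = 0.00039) and against adjacent liver 3.30 (SE 0.51, adjusted p = 0.00107), and Prom1 was higher in 14 of 14 tumors than in both liver pieces of the same mouse. The other probe set of Prom1 had group means of −4.43 to −4.27 and gave a tumor change of 0.04 against control (adjusted p = 0.759), so this result rests on 1 probe set.

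Non-tumor liver of MET mice fell into 2 sets for Prom1 that followed Xist. In distant liver it was −0.62 to −0.05 in the 4 mice with Xist and −3.70 to −3.51 in the 3 without. In adjacent liver it was −0.67 to −0.11 with Xist and −4.23 to −3.11 without. The 2 control mice with Xist were at −2.32 and −1.45 and the 5 without at −4.01 to −3.58. Between mice with and without Xist the log2 difference was 3.22 in distant liver (SE 0.13, adjusted p = 3e-08) and 3.23 in adjacent liver (SE 0.22, adjusted p = 6.13e-06), where 1.14% and 1.15% of probe sets were higher with Xist. No other of the 7 genes passed in either. In tumors the difference was 0.34 (SE 0.35, adjusted p = 0.912), where 0.00687% of probe sets were higher with Xist, and the ranges with Xist, 1.14 to 2.18, and without, −0.19 to 2.12, overlapped. The plot of Prom1 by Xist shows both sets beside the tumors.

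**Figure D3:**
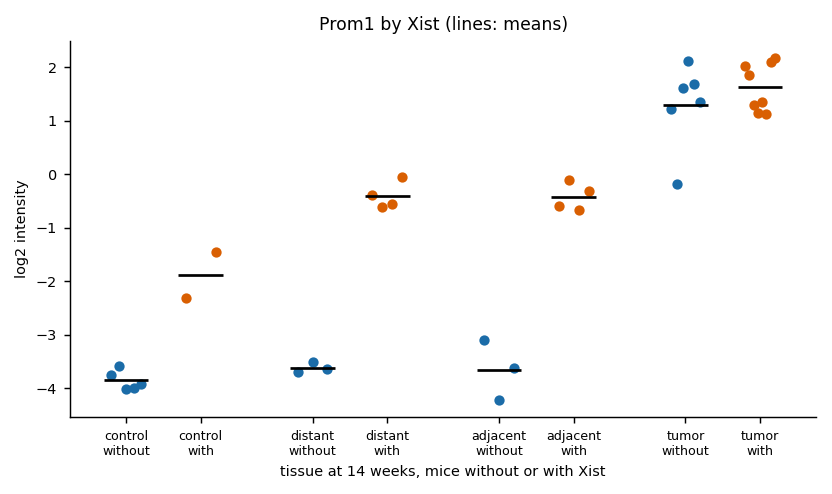
Prom1 log2 intensity at 14 weeks in mice without Xist (left of each pair) and with Xist (right), for control, distant and adjacent liver and tumors. Points are samples and lines are means. The sets do not overlap in liver, and they overlap in tumors.

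Because control mice with Xist were 2 of 7 and MET mice with Xist 4 of 7, the Prom1 comparison outside tumors depended on how Xist was treated. Distant liver exceeded control by 1.51 (SE 0.62, adjusted p = 0.201) in all mice, by 0.75 (SE 0.19, adjusted p = 0.0247) with Xist as a covariate, by 1.49 (SE 0.22, adjusted p = 0.00665) in mice with Xist, and by 0.23 (SE 0.11, adjusted p = 0.438) in mice without. These fits gave adjacent liver 1.49 (adjusted p = 0.177), 0.73 (0.0524), 1.47 (0.00928) and 0.20 (0.762). The difference between mice with and without Xist in the change from control did not pass, at 1.25 (SE 0.26, adjusted p = 0.0642) in distant liver and 1.27 (SE 0.33, adjusted p = 0.182) in adjacent liver, where 0.165% and 0.16% of probe sets passed. Tumors exceeded control by 3.52 in mice with Xist (adjusted p = 0.00109) and by 5.15 in mice without (adjusted p = 1.05e-07), and that difference did not pass either (adjusted p = 0.209, where 0.231% of probe sets passed).

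Krt19, a keratin of duct epithelium, was even across the liver groups and raised in most tumors. The 35 liver samples ran from −3.18 to −1.59, the highest being LAP-tTA 4. The 14 tumors ran from −2.71 (tumor 5b) to 1.41 (tumor 1b) with a median of −0.84, and 10 of them were above every liver sample. Tumors 1a, 2a, 5a and 5b, at −2.34, −2.22, −2.63 and −2.71, were within the liver range. Per mouse the tumor mean was −1.04 ± 0.87 (SD, n = 7) against −2.63 ± 0.22 in control liver, a 3.0-fold change (log2 1.59, SE 0.29, adjusted p = 0.000606). Krt19 was 3.34-fold above distant liver (SE 0.27 on the log2 scale, adjusted p = 0.000876) and 3.14-fold above adjacent liver (SE 0.25, adjusted p = 0.000912), higher in 7 of 7 mice. Without tumor 1b these log2 changes were 1.32, 1.47 and 1.38, all called. With Xist mice only (4 MET and 2 control) the change against control was 1.36 and did not pass (adjusted p = 0.229).

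Krt7, the keratin that pairs with Krt19 in ducts, was dim throughout. Liver samples ran from −4.61 to −3.70. The 4 tumors above them were 1b at −1.96, 4b at −3.25, 6a at −3.53 and 3a at −3.65, while the median tumor, at −4.08, lay within the liver range. The mean of both tumors exceeded distant liver in 7 of 7 mice (log2 change 0.44, SE 0.11, adjusted p = 0.0155). That call was lost without tumor 1b, at 0.28 (adjusted p = 0.087), and with no block for the mouse (adjusted p = 0.0731). Against control the change was 0.10 (SE 0.18, adjusted p = 0.716) and against adjacent liver 0.14 (SE 0.19, adjusted p = 0.578).

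Cd24a, a small lipid-anchored surface glycoprotein that marks duct-like progenitors, followed the same order of groups as Krt19 only in that tumors were highest. Liver samples ran from −2.82 to −0.69, with LAP-tTA 4 (−0.69) and the distant and adjacent liver of mouse 1 at the top. Tumors ran from −2.39 (tumor 5a) to 1.64 (tumor 1b), with a median of −0.69. Each of the 14 tumors was above both liver pieces of its own mouse, although 7 of them lay within the range of all liver samples. The change was 1.58 against control (SE 0.33, adjusted p = 0.00152), 1.48 against distant liver (SE 0.16, adjusted p = 5.65e-05) and 1.34 against adjacent liver (SE 0.19, adjusted p = 0.000604). Without tumor 1b it was 1.42, 1.32 and 1.18, all called, and in Xist mice only it was 1.47 against control (adjusted p = 0.202). The second probe set was also higher in tumors, by 1.66, 0.84 and 0.78 (adjusted p = 0.00393, 0.00233 and 0.004), in 6 of 7 mice against either liver piece. It differed from the first in young liver, where it was lower in TRE-MET by 0.77 (SE 0.21, adjusted p = 0.0307), against 0.26 lower (adjusted p = 0.67) at the first. In distant and adjacent liver it was 0.81 and 0.87 above control (adjusted p = 0.0538 and 0.051), against 0.10 and 0.24 at the first.

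Epcam, the epithelial adhesion molecule of ducts and progenitors, passed in no comparison. Its group means lay between −3.46 and −3.19, and no neighbours in their order differed beyond their pooled SD. Most tumors were within the liver range of −3.71 to −2.95. The 5 above it were 3a at −2.30, 1b at −2.49, 6a at −2.50, 4b at −2.67 and 6b, at its upper edge, at −2.95. The change was 0.21 against control (SE 0.14, adjusted p = 0.286), 0.27 against distant liver (SE 0.12, adjusted p = 0.127) and 0.25 against adjacent liver (SE 0.12, adjusted p = 0.114).

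Spp1 encodes osteopontin, a secreted protein that binds integrins and CD44. It was lower in non-tumor liver of MET mice than in control liver, and it ranged widely among tumors. Control livers ran from 0.91 to 1.24 (median 1.19), distant livers from −0.41 to 0.03 (median −0.28) and adjacent livers from −0.63 to 0.73 (median 0.44). Neither liver group overlapped with control. Distant liver fell by 1.31 on the log2 scale, a 2.48-fold change (SE 0.08, adjusted p = 3.26e-08), and adjacent liver by 0.82 (SE 0.16, adjusted p = 0.00503). Of the 7 genes Spp1 was the only one called in either comparison, with 0 rising and 1 falling in each, where 2.47% of probe sets rose and 2.6% fell in distant liver and 3.85% rose and 3.15% fell in adjacent liver. With sample medians set equal the calls in adjacent liver turned from 1680 higher and 1378 lower to 911 higher and 2125 lower, and Spp1 stayed lower. Spp1 was lower in mice with Xist and in mice without, by 1.33 and 1.41 in distant liver (adjusted p = 0.000258 and 5.29e-06) and by 0.64 and 1.18 in adjacent liver (adjusted p = 0.0174 and 0.00108). Without controls 5 and 7 it was lower by 1.30 and 0.82 (adjusted p = 1.36e-06 and 0.0234). A fit of all 6 groups, in which tumors share the estimate of spread, called neither (adjusted p = 0.0832 and 0.279). Stellate cell and fibroblast genes were also lower in distant liver, where 0 of 9 rose and 5 fell. Their summed intensity was 17.4 to 22.6 in distant, 13.6 to 31.1 in adjacent and 22.9 to 30.1 in control liver. Their part in the Spp1 result was not tested.

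Tumors held both the lowest and the highest Spp1 of all samples, −1.04 in tumor 5b and 4.64 in tumor 1b. Of the 14 tumors, 7 exceeded every liver sample, from tumor 3b at 1.29 to 1b at 4.64, and only tumor 5b lay below all of them. Spp1 exceeded distant liver by 1.45 (SE 0.33, adjusted p = 0.00864), in 6 of 7 mice, and by 1.16 without tumor 1b (adjusted p = 0.00684). Against adjacent liver it was 0.96 (SE 0.35, adjusted p = 0.0584) and against control 0.13 (SE 0.37, adjusted p = 0.824).

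Sox9, a transcription factor that specifies and marks duct cells, was on average not higher in tumors than in control, distant or adjacent liver. In tumors it ran from −3.95 (tumor 5b) to −2.40 (tumor 4b), with a median of −3.09, and control liver from −3.03 to −1.80, with a median of −2.33. Tumors were lower than control by 0.69 (SE 0.21, adjusted p = 0.0192). Controls without Xist, at −2.83 to −1.80, were higher than the 2 with it, at −3.03 and −2.85. In mice without Xist tumors were lower by 0.98 (adjusted p = 0.00547) and in mice with Xist by 0.09 (adjusted p = 0.886), a difference that did not pass (0.89, SE 0.37, adjusted p = 0.418). Without controls 5 and 7 the fall was 0.61 and did not pass (adjusted p = 0.0784). The second probe set fell by 0.34 (SE 0.13, adjusted p = 0.0492). Tumors were also lower than adjacent liver by 0.34 (SE 0.10, adjusted p = 0.0293), in 7 of 7 mice, but this call was lost with sample medians set equal (−0.25, adjusted p = 0.124), by quantile normalization (adjusted p = 0.0852), and without mouse 5, 6 or 7 (adjusted p = 0.0675, 0.0616 and 0.0598). Distant liver was lower than control by 0.64 (SE 0.20, adjusted p = 0.0683). In mice without Xist it was lower by 0.99 (adjusted p = 0.0198), and in mice with Xist the change was 0.003 (adjusted p = 0.997). The difference between these 2 changes did not pass (0.99, SE 0.33, adjusted p = 0.363).

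Before tumors, Sox9 and Spp1 were the genes that differed between strains at the probe sets taken. In TRE-MET against LAP-tTA liver 2 of 7 rose and 0 fell, where 3.26% of probe sets rose and 3.6% fell. Sox9 was at −3.71 to −3.10 in LAP-tTA liver (median −3.36) and at −2.79 to −1.40 in TRE-MET liver (median −1.87), without overlap, and rose 2.43-fold (log2 change 1.28, SE 0.19, adjusted p = 0.000213). The LAP-tTA values lie near the sample medians, so this fold depends on a level that may be at the floor. The 4 TRE-MET livers with high neutrophil genes held the 4 highest values, −1.87 to −1.40, against −2.79 to −2.48 in TRE-MET 4, 6 and 7. Without those 4 the rise was 0.68 (SE 0.12, adjusted p = 0.00346), and with those 4 alone it was 1.73 (SE 0.12, adjusted p = 1.64e-08). Whether neutrophils or inflammation account for part of it was not tested. The second probe set rose by 0.71 (SE 0.16, adjusted p = 0.00651), from a mean of −4.10 in LAP-tTA liver, below the sample medians.

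Spp1 ran from 0.22 to 0.55 in LAP-tTA liver (median 0.43) and from 0.57 to 1.18 in TRE-MET liver (median 1.0), without overlap. It rose 1.4-fold (log2 change 0.49, SE 0.10, adjusted p = 0.00341), by 0.53 without TRE-MET 1, 2, 3 and 5 (adjusted p = 0.00613) and by 0.45 with them alone (adjusted p = 0.0101). The fit of all 6 groups did not call it (adjusted p = 0.696). The 14-week control livers lay nearer to TRE-MET than to LAP-tTA liver for both genes, at means of −2.39 for Sox9 and 1.12 for Spp1, against −2.05 and 0.89 in TRE-MET and −3.33 and 0.40 in LAP-tTA. Age and strain cannot be told apart there. The 5 other genes did not pass in young liver at the probe sets taken, and Krt19, Krt7, Epcam and Prom1 differed by at most 0.18. Cd24a was lower in TRE-MET by 0.26 (adjusted p = 0.67), whereas its second probe set was lower by 0.77 and passed (adjusted p = 0.0307).

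For Sox9 and Spp1 the difference that went with MET before tumors differed from that in distant liver after onset. The contrast, TRE-MET minus LAP-tTA less distant minus control, was 1.92 for Sox9 (SE 0.30, adjusted p = 3.32e-05) and 1.80 for Spp1 (SE 0.13, adjusted p = 1.3e-11). Without TRE-MET 1, 2, 3 and 5, whose neutrophil genes stand apart, it was 1.32 for Sox9 (SE 0.28, adjusted p = 0.00264) and 1.84 for Spp1 (SE 0.13, adjusted p = 1.32e-10). The other 5 did not pass, and 7.73% of all probe sets did. By the labels, LAP-tTA is named for young controls and 14-week MET mice, but not for young TRE-MET mice or 14-week controls. LAP-tTA carriage thus cannot be told apart from MET or the stage in this contrast. All young mice were without Xist, whereas 4 of 7 MET mice and 2 of 7 controls at 14 weeks had it. The contrast was not fitted by Xist. In LAP-tTA, distant and adjacent liver, means were 0.40, −0.20 and 0.29 for Spp1 and −3.33, −3.04 and −2.74 for Sox9. In TRE-MET and control liver they were 0.89 and 1.12 for Spp1 and −2.05 and −2.39 for Sox9. The cause of this pattern was not tested.

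None of the 7 genes passed between adjacent and distant liver of the same mice. No probe set passed (0.0% of 43681 by limma, 5824 at an unadjusted p under 0.05). Spp1 was higher in adjacent liver in 6 of 7 mice, by 0.49 (SE 0.11, unadjusted p = 0.000581, adjusted p = 0.21), and Sox9 in 5 of 7, by 0.29 (SE 0.11, adjusted p = 0.286). Adjacent liver of mouse 4 held the highest Epcam (−2.95), Krt19 (−2.23), Spp1 (0.73) and Prom1 (−0.11) of that group. Its Sox9 (−2.61) and Cd24a (−1.15) were not the highest, and its Krt7 (−4.32) was near the low end of the group, −4.41 to −3.73. The same sample had Afp, the fetal albumin-like protein, at 3.15 and Glul, the glutamine synthetase, at 5.35, against −0.24 and 3.47 at most in the 6 others, and tumor tissue in that piece was not tested for.

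In the order of group means, only a few steps were larger than the pooled SD of the 2 neighbouring groups. For Krt19 and Cd24a that was the step up to tumors. For Prom1 it was the steps from control to adjacent liver and from distant liver to tumors. For Spp1 the order ran distant, adjacent, LAP-tTA, TRE-MET, control, tumor, and the steps from adjacent to LAP-tTA liver and from control to tumors lay within the spread. For Sox9 it ran LAP-tTA, tumor, distant, adjacent, control, TRE-MET, and for Krt7 and Epcam it began with distant liver and ended with tumors, with no step larger than the spread.

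None of the 7 genes passed the F test of mouse among the 14 tumors (F = 1.27 to 5.19, adjusted p = 0.337 or higher), where 0.197% of probe sets passed. Unadjusted p was 0.0108 for Sox9, 0.0145 for Prom1 and 0.0178 for Cd24a. The SD within a mouse was larger than that of the mouse means for Spp1 (1.40 and 1.13), Krt19 (1.14 and 0.87), Krt7 (0.69 and 0.46) and Epcam (0.45 and 0.39), and smaller for Cd24a (0.78 and 0.98), Prom1 (0.42 and 0.55) and Sox9 (0.24 and 0.36). Without mouse 1, which holds tumor 1b, it was smaller for all 7, at 0.96 and 1.05 for Spp1, 0.59 and 0.91 for Krt19, 0.32 and 0.33 for Krt7 and 0.37 and 0.42 for Epcam. A mouse mean averages both tumors, which lowers its SD even where mice do not differ. The SDs alone therefore do not show whether tumors differ more within or between mice. The F test takes the averaging into account. The largest difference within a mouse was in mouse 1 for Spp1 (4.05), Krt19 (3.75), Krt7 (2.32), Cd24a (2.28), Prom1 (1.41) and Epcam (1.13). Tumors 7a and 7b differed by 0.13 in Spp1 and 0.13 in Krt19. The plot of tumors by mouse shows this spread beside the liver of the same mouse.

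**Figure D4:**
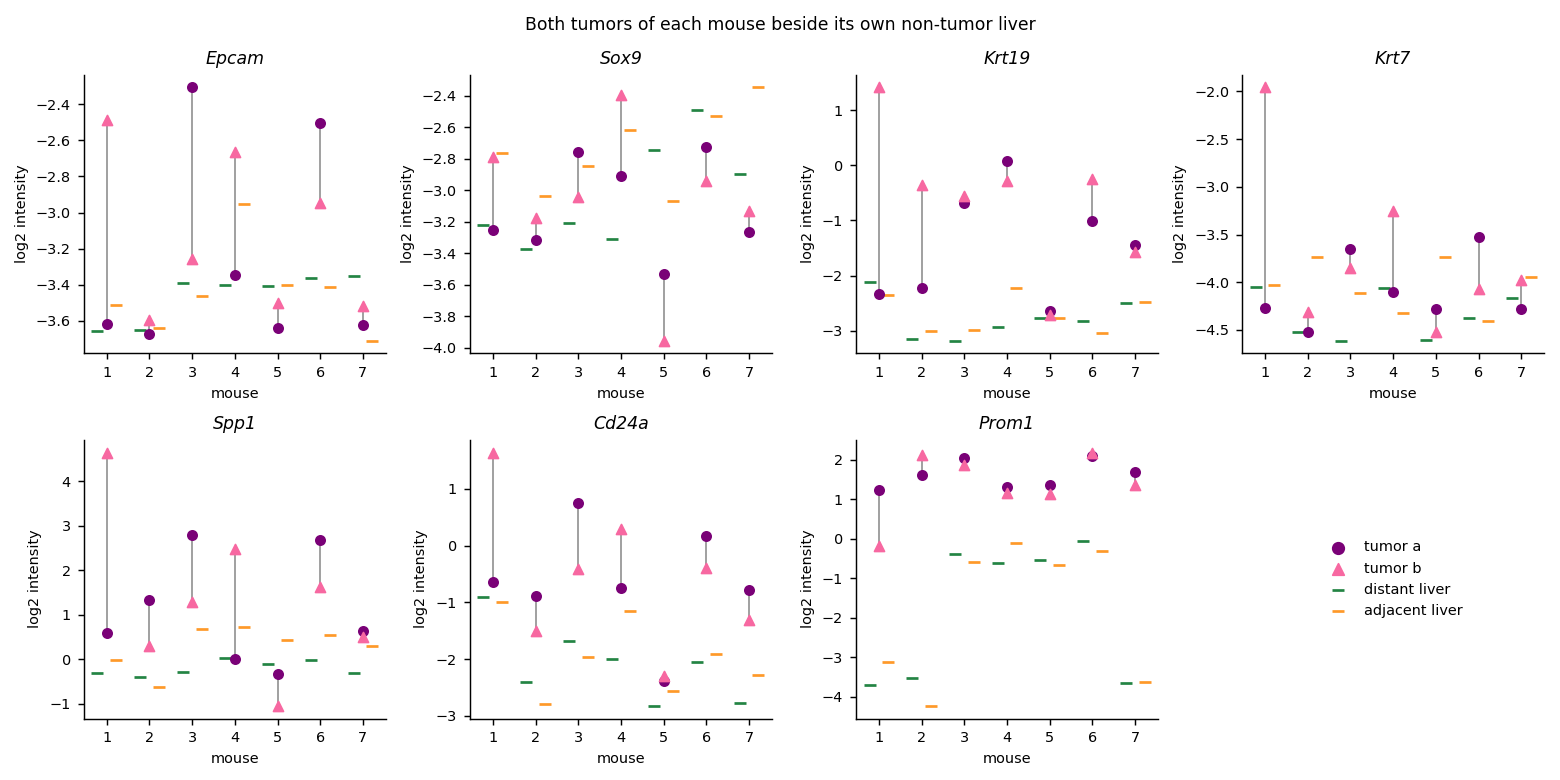
Log2 intensity of each gene in both tumors of the 7 mice (circle, tumor a, and triangle, tumor b, joined by a line), with dashes for distant and adjacent liver of the same mouse. Mouse 1 has the widest line for Spp1, and all tumors lie above both dashes for Cd24a and Prom1.

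The same 4 tumors, 1b, 3a, 4b and 6a, each from a different mouse, held the 4 highest values of Epcam, Sox9, Krt7, Spp1 and Cd24a. Of these 4, Krt19 had 1b and 4b among its highest 4, with 4a and 6b, and Prom1 had 3a and 6a, with 2b and 6b. Sox9 and Krt7 were both higher in the same tumor of the pair in 7 of 7 mice, Spp1 and Cd24a in 6 of 7, and Epcam in 6 of 7 with either Sox9 or Krt7. Krt19 went with Cd24a in 2 of 7 and Prom1 with Cd24a in 2 of 7. Tumors 5a and 5b were at the low end, with Krt19 and Cd24a 0.05 to 0.52 above distant liver and Spp1 0.22 and 0.95 below it. This is a description of 14 tumors that share mice, and no test was run on it.

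**Figure D5:**
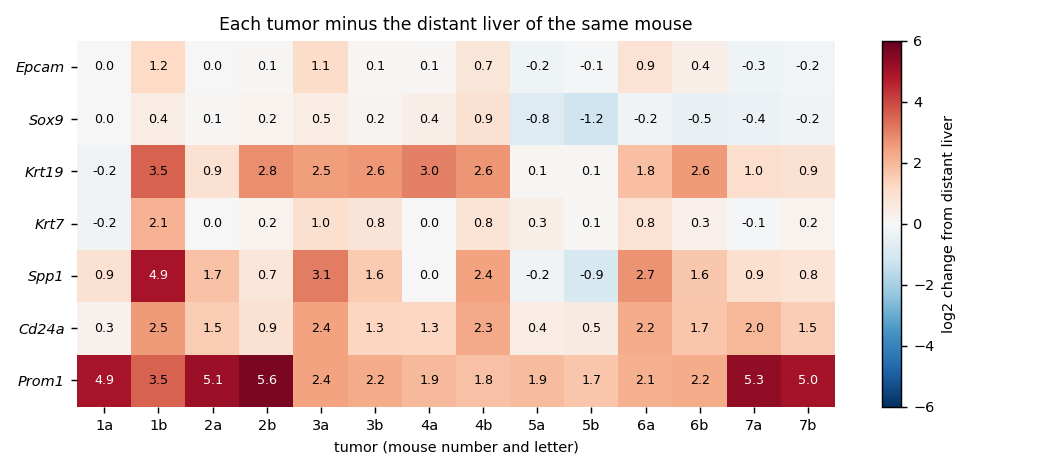
Log2 intensity of each tumor (columns) minus that of distant liver of the same mouse, for the 7 genes (rows), with the value printed in each cell. Tumor 1b has the largest Spp1 value and tumors 5a and 5b have Krt19 values near zero, while Prom1 is above zero in every tumor and larger in mice 1, 2 and 7, which lack Xist, than in the other 4.

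The summed intensity of 9 stellate cell and fibroblast genes was 245 in tumor 1b, 65.6 in 3a, 61.4 in 6a and 61.1 in 4b, against 16.8 to 60.4 in the other 10 tumors. In tumor 1b the 11 macrophage genes summed to 119 (7.61 to 28.8 in the other tumors), 5 neutrophil genes to 8.99 (0.621 to 1.42), 8 lymphocyte genes to 8.05 (1.54 to 3.53), 8 endothelial genes to 16.1 (4.93 to 11.9), 8 mesothelial genes to 2.1 (0.523 to 0.666) and 4 erythroid genes to 15.5 (0.886 to 2.31). In 3a, 4b and 6a the endothelial sums were 4.93, 5.42 and 5.56, the macrophage sums 17.1, 25.2 and 15.9 and the neutrophil sums 0.642, 0.902 and 0.621, all within the range of the other tumors or below it. Their lymphocyte sums were 2.07, 3.53 and 1.97, and tumor 4b was the highest after 1b. For the mesothelial genes tumor 6a, at 0.666, was the highest after 1b. The 9 hepatocyte genes in 1b summed to 261, the lowest of all tumors (367 to 433). Tumors 5a and 5b had the lowest stromal sums, 17.4 and 16.8. The part of stromal and blood cells in the tumor values was not tested, and the fits without tumor 1b are given above.

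Over all 21517 named genes, 3688 rose and 3875 fell in tumors against control (35.1%), 716 rose and 755 fell in distant liver (6.84%), and 929 rose and 1084 fell in TRE-MET against LAP-tTA liver (9.36%). Among 25 measured further genes of biliary epithelium, 9 rose and 5 fell in tumors against control, beside 35.1% of all genes called, with a median change of 0.09, beside −0.04 over all genes. Krt8 and Krt18, the keratins that hepatocytes share with ducts, rose 2.42-fold and 2.36-fold (adjusted p = 7.28e-09 and 8.15e-09), and the adhesion protein gene Cdh1 2.26-fold (adjusted p = 1.02e-07). The water channel gene Aqp1, found in ducts and in endothelium, fell 3.41-fold (adjusted p = 9.69e-09). In distant liver 1 of the 25 rose and 0 fell, and in TRE-MET against LAP-tTA liver 0 rose and 1 fell, beside 6.84% and 9.36% of all genes called.

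Of 12 measured progenitor and fetal liver genes, 8 rose and 0 fell in tumors, beside 35.1% of all genes called, with a median change of 1.20. Afp rose 237-fold, Gpc3, a fetal cell-surface proteoglycan, 71.2-fold, Lgr5, a receptor that enhances Wnt signaling, 7.70-fold, and Tnfrsf12a, the receptor of the progenitor mitogen TWEAK, 7.45-fold (adjusted p = 3.2e-13, 3.13e-12, 2.53e-09 and 7.14e-08). The control means of Afp and Gpc3, both −3.29, lay at the sample medians, so these folds depend on a level that may be at the floor. In distant liver 3 of the 12 rose and 2 fell, beside 6.84% of all genes called. There Afp and Tnfrsf12a rose 3.66-fold and 1.55-fold and Lgr5 fell 1.89-fold (adjusted p = 3.75e-05, 0.0286 and 0.00113). In young liver 0 of the 12 passed in either direction, beside 9.36% of all genes.

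Of 18 genes of the Notch and YAP pathways, which direct duct fate, 10 rose and 2 fell in tumors, beside 35.1% of all genes called, with a median change of 0.31. In distant liver 1 rose and 4 fell and in young liver 2 rose and 1 fell, beside 6.84% and 9.36%. Wwtr1, which encodes TAZ, rose 2.44-fold, and the YAP target genes Ccn2, Ankrd1 and Ccn1 rose 11.0-fold, 7.73-fold and 1.86-fold (adjusted p = 8.84e-07, 1.5e-05, 0.000231 and 0.000537). Tumor 1b had the highest sum of this list, 86.8, against 12.4 to 22 in the other tumors, and these folds are not given without it. In distant liver Ccn2 rose 1.91-fold and Ccn1 fell 1.54-fold (adjusted p = 0.0156 and 0.0119), and in young mice Wwtr1 rose 1.29-fold with TRE-MET (adjusted p = 0.0134).

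Of 9 receptors of osteopontin and CD24, 3 rose and 2 fell in tumors, beside 35.1% of all genes called, with a median change of 0.28. The integrin genes Itgb1, Itgb5 and Itgav rose 1.65-fold, 1.52-fold and 1.41-fold (adjusted p = 8.57e-05, 0.000219 and 0.0292), and Itga9 fell 1.9-fold (adjusted p = 0.000565). In young liver Itga9 was 2.05-fold higher in TRE-MET mice (adjusted p = 3.22e-06), and in distant liver it was 1.35-fold lower than in control (adjusted p = 0.0286).

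In tumors against control, beside 35.1% of all genes called, 4 of 9 hepatocyte genes fell and 0 rose, with Cps1, of the urea cycle, 14.5-fold lower (adjusted p = 6.3e-06). Of 11 macrophage genes 6 fell and 2 rose, with the Kupffer cell receptor Clec4f 4.16-fold lower, and 4 of 8 endothelial genes fell and 1 rose, with the sinusoidal lectin Clec4g 8.32-fold lower (adjusted p = 2.87e-07 and 3.35e-08). Of 9 stellate and fibroblast genes 4 rose and 2 fell, with Col1a1 11.5-fold higher and Lrat, of retinoid storage, 6.53-fold lower (adjusted p = 0.000157 and 1.05e-07). Col1a1 was at 6.66 in tumor 1b, against 2.77 at most in the other tumors. Of 7 proliferation genes 6 rose and 0 fell, with Mki67 12.2-fold higher (adjusted p = 2.37e-10). Of 5 neutrophil genes 1 fell, of 8 lymphocyte genes 4 fell, of 4 erythroid genes 1 fell, of 8 mesothelial genes 0 passed, and of 8 pancreas genes 1 rose, the lipase-related Pnliprp1, 74.9-fold (adjusted p = 2.03e-05). These counts and folds include tumor 1b and controls 5 and 7, and are not given without them.

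By Pearson r over the 49 samples, Krt19 was nearest to Cthrc1, Fstl1 and Fbn1 (0.91, 0.9 and 0.9), and Cd24a to the matrix protein gene Thbs1, to Fbn1, which encodes fibrillin, and to Vim, an intermediate filament gene of mesenchyme (0.9, 0.89 and 0.88). Spp1 was nearest to Tmem45a, the matrix proteoglycan gene Bgn and Tspan3 (0.93, 0.89 and 0.86), and Krt7 to Sfxn3, the collagen gene Col16a1 and Ckap4 (0.84, 0.83 and 0.82). Epcam was nearest to Fam13c, Fxyd3 and Anxa13 (0.81, 0.8 and 0.78), and Sox9 to Tshz2, Cadm4 and the cilium protein gene Pkhd1 (0.74, 0.73 and 0.71). Prom1 was nearest to the steroid-metabolizing enzyme gene Akr1c18 and to Tlr1 and Blnk (0.97, 0.96 and 0.96). Akr1c18 had means of −2.49 in control liver, 0.26 in distant liver and 4.37 in tumors. Among the 7 themselves, Krt19 and Cd24a were the most alike (0.83) and Sox9 and Prom1 the least (−0.34). The points share mice and the contrast of tumor and liver, and these values carry no test. They include tumor 1b, the highest sample for Spp1, Krt19, Krt7, Cd24a and the stellate and fibroblast sum. Values of r without it were not computed, so the nearness to matrix genes may rest on that sample.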

How the data were processed

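The 49 samples, from 28 mice, were bulk liver or tumor RNA on a custom Affymetrix mouse array. The deposited values are intensities that the authors normalized by RMA (version not given in the sources used here), not logged, each sample averaging 1.0. They were taken as log2 with no pseudocount and no filter. Of 43681 probe sets 30342 had 1 symbol, 0 several and 13339 none, and 6202 symbols were updated through unique synonyms (RefSeq table of GRCm38.p6, names only). The number of arrays limits the precision.

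Both tumors of a mouse were averaged. Comparisons were fitted with limma 3.58.1 in R 4.3.3, with the mouse as a block within MET mice, and p-values were adjusted (Benjamini-Hochberg) over all probe sets, called under 0.05. P-values of the unpaired comparisons measure the spread between these mice. Those with the mouse as a block measure how the difference within a mouse varies over the mice. The F test of mouse takes the spread between both tumors of a mouse as its error. Same-numbered MET samples were read as 1 mouse from the number in their labels. Their deviations correlated at 0.36 to 0.60 (adjacent and distant), 0.12 to 0.38 (tumor and distant) and 0.03 to 0.34 (tumor and adjacent). The 2 tumor ranges overlap that of different animals, −0.40 to 0.33, so they do not show the pairing of tumors. The fit of all 6 groups took the mouse as a random block (correlation 0.050). Simulated arrays in which 200 probe sets were changed served to check the fits. Python 3.11.15 with pandas 2.3.3 and matplotlib 3.10.9 did the rest.

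Named were the 7 genes, up to 4 genes with the smallest p in tumors against control from each of 14 lists (biliary epithelium, progenitor and oncofetal, Notch and YAP, osteopontin and CD24 receptors, hepatocytes, macrophages, neutrophils, lymphocytes, stellate cells and fibroblasts, endothelium, mesothelium, pancreas, erythroid cells, proliferation) and the 3 genes most like each by Pearson r. The 7 genes and the lists were chosen with earlier results of these data known. Alternatives were scaling, a filter on dim probe sets, other probe sets, the methods' t-test, blocks, single tumors and leaving out each mouse. The fits by Xist, without tumor 1b, without controls 5 and 7 and of the young against 14-week contrast without TRE-MET 1, 2, 3 and 5 were chosen after seeing the data. The same split of TRE-MET mice, used in young liver, also follows neutrophil genes in these data.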

Additional observations from a re-analysis of the deposited data

Results flagged for a closer look

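Of 42 groups of 7 samples (7 genes in 6 groups, the tumors as mouse means), 2 had a sample whose gap to the nearest other exceeded 0.568 of the range, and chance gives about 1 in 20. Epcam in adjacent liver of mouse 4 was −2.95, above −3.71 to −3.40 in the 6 others, in the sample that also had high Afp and Glul. Cd24a in TRE-MET 3 was −1.62, above −2.73 to −2.30 in the 6 others, in the sample with the highest neutrophil sum among young livers.

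For 2 genes the change in TRE-MET against LAP-tTA liver differed from that in distant liver against control, by a test of the contrast. It was 1.92 for Sox9 (adjusted p = 3.32e-05), from 1.28 higher in young mice and 0.64 lower at 14 weeks, the latter not called. It was 1.80 for Spp1 (adjusted p = 1.3e-11), from 0.49 higher and 1.31 lower, both called. Without TRE-MET 1, 2, 3 and 5 it was 1.32 and 1.84 (adjusted p = 0.00264 and 1.32e-10). By the labels, LAP-tTA carriage, MET and stage cannot be told apart in this contrast, and the cause was not tested. All young mice were without Xist, and the contrast was not fitted by Xist.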

How the results depend on the processing

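Of 1190 recomputed values of the 7 genes, 1140 kept their side of the threshold (43 of these, called in neither fit, changed sign), 36 lost a call, 12 gained one and 2 reversed. Those that reversed were of Prom1 at its other probe set, −0.11 against distant and −0.068 against adjacent liver. Of 338 recomputed counts, 300 stayed within 1.5 times.

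At an adjusted p under 0.01 the probe sets called were 1592 in TRE-MET against LAP-tTA, 874 in distant and 1113 in adjacent liver against control, 8098, 6946 and 6387 in tumors against control, distant and adjacent liver, 16 between mice and 1886 for young against 14-week mice. TRE-MET against LAP-tTA gave 1743 without TRE-MET 1, 2, 3 and 5 and 5404 without 4, 6 and 7. The fit of all 6 groups called 1, 0 and 0 of the 7 genes in young, distant and adjacent liver, since Spp1 was lost. The methods' t-test at p under 0.01 called 3512 in distant liver against control and 1428 in adjacent against distant liver, and after Benjamini-Hochberg 1668 and 0. It called 3 of the 7 genes in tumors against distant liver at either threshold, as did tumors b alone (Krt7 and Spp1 were lost, at adjusted p = 0.0691 and 0.0662 by that t-test). With medians set equal, adjacent against distant liver gave 2. Mice without Xist gave 871 and 958 in distant and adjacent liver against control, and mice with Xist 1047 and 1680 (4557 in tumors, with 1 of the 7 genes). In distant liver 2 of the 7 were called with, without and adjusted for Xist, and in adjacent liver 2 with Xist. Without controls 5 and 7 distant liver gave 1307.

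Replicate numbers of LAP-tTA, TRE-MET and control mice mark different animals (correlations −0.40 to 0.33). With a replicate block these comparisons gave 2725, 1567, 1619 and 11597, and Sox9 joined Spp1 in distant liver (2 of the 7, adjusted p = 0.0147). With no replicate block the paired comparisons gave 0, 11786 and 15827, with 0, 4 and 3 of the 7 genes. Krt7 against distant liver and Sox9 against adjacent liver (adjusted p = 0.0871) were lost.

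Leaving out 1 mouse gave 2370 to 3368 in young liver, 1509 to 2555 in distant and 1999 to 3907 in adjacent liver, 10916 to 13578, 9210 to 12575 and 9770 to 13175 in tumors against control, distant and adjacent liver, and 0 to 2 between adjacent and distant liver. Genes called were 2 to 2, 1 to 2, 1 to 1, 4 to 4, 5 to 5, 3 to 4 and 0 to 0. Adjacent liver gave 1999 without adjacent 6. Sox9 in distant liver was called without distant 6, control 1 or control 2 (adjusted p = 0.0461, 0.0442 and 0.0236), Krt7 there without control 4 (0.0398), and Spp1 in tumors against adjacent liver without mouse 5 (0.00526). Epcam and Krt7 have no value among probe sets above the median level, since their means, −3.33 and −4.07, lie below it (−3.29). The cause of the other changes given here was not tested.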
